A study of Homo sapiens with 2 samples.

Results

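The FOS, JUN and EGR genes encode transcription factors. Several of them are among the first that cells switch on when a growth factor, a depolarising stimulus or a stress arrives. The 10 genes described here are FOS, FOSB, FOSL1 and FOSL2, JUN, JUNB and JUND, and EGR1, EGR2 and EGR3. They were taken by gene symbol from the count file of each library, and each had a single row among 24462 symbols. The mRNA had been sequenced in 1 library of neural precursor cells (NPC) and 1 library of undifferentiated embryonic stem cells (hESC). The NPC were derived from the human embryonic stem cell line H9 by co-culture with MS5, a mouse stromal line that serves as a feeder layer, and the hESC were H9 itself. Both groups therefore share the H9 genome. Treatments and the number of cultures behind a library are not given in the labels, the count columns carry short codes that differ between the libraries and that the labels do not explain, and whether MS5 cells or their RNA remained in the NPC library was not tested.

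FOS and JUN family proteins carry a basic region and a leucine zipper and bind DNA in pairs as the factor AP-1. FOS proteins need a JUN partner, whereas JUN proteins can also pair with each other. EGR proteins bind GC-rich sites through zinc fingers and are held in check by the NAB corepressors. In neural tissue FOS, FOSB and the EGR genes are best known as markers of recent synaptic activity, and in many cycling cells the same genes respond to mitogens through the MAP kinase pathway, the serum response factor SRF and the cyclic AMP responsive factor CREB. The messages of these induced genes are short-lived.

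The NPC library held 24065750 counted reads and the hESC library 19686728. Levels are given as CPM, the reads of a gene in 1000000 reads of its library, on library sizes scaled by trimmed mean of M values (TMM), and ratios are NPC over hESC, each with an exact 95% interval that covers counting error only. With 1 library per group there is no replicate check and no test, and p-values were not computed. A gene was called measured at 5 CPM or more in either library, which is 136 reads in the NPC and 86.9 reads in the hESC library. It counted as higher or lower in NPC when even the interval bound closer to equality was 2-fold or more away. Most markers of the labelled cell types moved with the labels. All 10 pluripotency markers were lower, with a summed level of 33.7 CPM in NPC against 8047 CPM in hESC and ZSCAN10 at 0 reads in NPC. The 10 neural progenitor markers summed to 5775 CPM in NPC and 988 CPM in hESC (7 of 9 measured higher). VIM at 3291 CPM and CDH2 at 1359 CPM made up most of that NPC sum. SOX2 (283 CPM in NPC, 213 in hESC) and NES (366 and 355) were not called, and HES5 was not measured. The 10 neuron markers summed to 1919 CPM in NPC and 398 CPM in hESC (7 of 10 higher, RBFOX3 lower). The 11 stroma and fibroblast markers summed to 1045 CPM in NPC and 777 CPM in hESC (7 of 10 measured higher, 2 lower). The 8 endothelium and blood markers summed to 29.9 CPM in NPC and 165 CPM in hESC, with 2 measured and KDR lower. In bulk RNA, fewer cells of a type and less RNA per cell cannot be told apart, and the part of any of these cell types in the results below was not tested.

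EGR1, FOS and JUN were higher in the NPC library and FOSL1 was lower. Of the 10 genes 7 were measured, and of these 3 were called higher and 1 lower. Among all 13535 measured genes 19.6% were called higher and 19.8% lower, and the median log2 ratio of the 7 measured members was 0.76 against -0.09 for all measured genes. JUNB, JUND and FOSL2 were measured and not called. FOSB, EGR2 and EGR3 stayed under 5 CPM in both libraries. FOS passed the 5 CPM filter through NPC only, which leaves no room for a lower call, and FOSL1 and FOSL2 passed through hESC only, which leaves none for a higher call. JUN, JUNB, JUND and EGR1 passed in both, and among all 10804 genes that did so 12.8% were called higher and 17.2% lower. Scaling to the library total in place of TMM raised every log2 ratio by 0.36 and put 67.2% of all calls on the higher side, against 49.7% with TMM. With it JUND was called higher as well. Ratios below are relative to TMM.

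**Figure D1:**
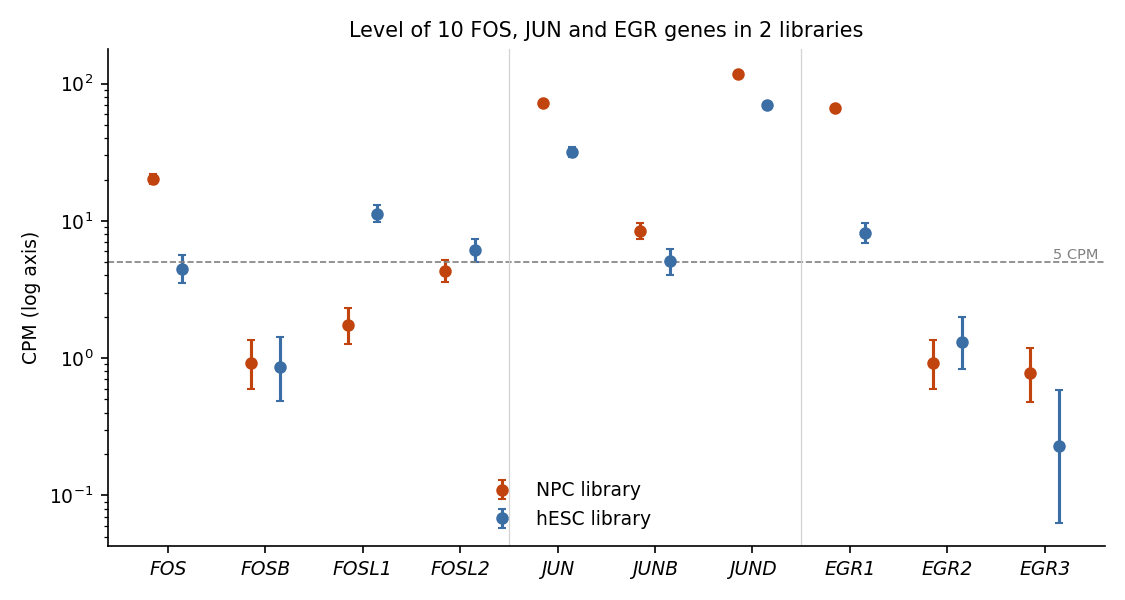
Level of each gene in CPM on a log axis, with the NPC library in orange and the hESC library in blue. Bars are exact 95% Poisson intervals of the read count, and the dashed line is the 5 CPM filter. EGR1, FOS and JUN lie above their hESC value in NPC, FOSL1 lies below it, and FOSB, EGR2 and EGR3 lie under the line in both libraries.

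The sequences upstream of the 3 genes called higher are shown because SRF, CREB, AP-1 and EGR proteins are known to act on genes of this kind through short promoter elements. Each run is the 250 bases before the RefSeq start of the gene on build GRCh38.p14, which is a later build than the hg19 named for the counts. EGR1 lies at chr5:138465229-138465478 on the plus strand, FOS at chr14:75278578-75278827 on the plus strand and JUN at chr1:58784048-58784297 on the minus strand. Capitals mark matches on either strand to the CArG box that SRF binds, to TGACG (the core of the cyclic AMP response element), to the AP-1 element TGANTCA and to the EGR element GCGNGGGCG.
EGR1: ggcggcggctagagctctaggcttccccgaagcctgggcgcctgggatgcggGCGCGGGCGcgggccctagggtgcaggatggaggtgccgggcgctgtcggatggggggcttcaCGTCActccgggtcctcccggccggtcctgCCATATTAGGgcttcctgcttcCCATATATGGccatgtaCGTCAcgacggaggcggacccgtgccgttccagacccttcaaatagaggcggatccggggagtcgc
FOS: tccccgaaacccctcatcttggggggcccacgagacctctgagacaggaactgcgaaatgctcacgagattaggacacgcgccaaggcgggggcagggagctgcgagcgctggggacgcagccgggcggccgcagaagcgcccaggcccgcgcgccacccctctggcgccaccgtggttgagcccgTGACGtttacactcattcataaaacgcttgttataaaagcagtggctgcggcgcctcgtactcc
JUN: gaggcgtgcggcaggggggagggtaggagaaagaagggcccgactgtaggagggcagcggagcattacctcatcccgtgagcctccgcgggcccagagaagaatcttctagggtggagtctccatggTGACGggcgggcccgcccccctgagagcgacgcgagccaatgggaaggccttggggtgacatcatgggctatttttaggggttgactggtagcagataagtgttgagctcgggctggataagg

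EGR1 held 2 CArG boxes, at bases -105 to -96 and -83 to -74 from the start, in a window of 250 bases before to 50 after it. Of 35116 RefSeq promoters of the same length 1.29% held a CArG box and 0.0313% held at least 2. EGR1 also held 2 TGACG matches and 1 EGR element, found at least once in 24.6% and 9.43% of all promoters. The FOS and JUN windows each held 1 TGACG match, at -64 to -60 and at -123 to -119, and no CArG box in these letters. The serum response element of FOS is known to lie farther upstream than this window. The full element TGACGTCA, present in 1.85% of promoters, was found among the members in JUND alone, and its 2 overlapping TGACG matches count among the 3 of that promoter. Promoters were found for 8 of the 10 genes, and at least 1 TGACG match stood in the window of each of FOS, FOSB, FOSL2, JUN, JUNB, JUND, EGR1 and, at 1 of its 3 listed starts, EGR2. The same EGR2 start held the 1 other CArG box, at -71 to -62. A match in these windows describes letters and not a bound site.

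EGR1, a zinc finger factor induced by growth factors and by neuronal activity, showed the largest ratio among the 10 genes. It had 1797 reads (66.1 CPM) in NPC and 142 reads (8.17 CPM) in hESC, a ratio of 8.06 (6.81 to 9.66). Its level per transcript length was above that of 80% of measured genes in NPC and of 24.1% in hESC. The ratio itself was above that of 94% of measured genes. EGR1 alone among the higher members also passed a stricter 4-fold bound. Its promoter is the one with the CArG pair shown above, and a link between that pair and the ratio was not tested.

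EGR2 and EGR3, relatives of EGR1 known in mice for roles in hindbrain and myelinating glia and in muscle spindles, were near the detection limit. EGR2 had 25 reads (0.919 CPM) in NPC and 23 reads (1.32 CPM) in hESC, a log2 ratio of -0.53 whose interval, -1.40 to 0.36, spans no change. EGR3 had 21 reads (0.772 CPM) in NPC and 4 reads (0.23 CPM) in hESC, a ratio of 3.05 with an interval of 1.13 to 13.4. In GENCODE 29 exons of EGR3 overlap those of an opposite-strand transcript, and without a stated strand setting reads of the pair could not be separated. Summed over its 3 genes the EGR family had 67.8 CPM in NPC and 9.72 CPM in hESC, a ratio of 6.95 (5.95 to 8.21). EGR1 supplied 97.5% of EGR family reads in NPC (95% binomial interval 96.7 to 98.2) and 84% in hESC (77.6 to 89.2). The ratio of EGR1 exceeded that of EGR2 by 11.6 times (6.13 to 21.9).

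Of the corepressor genes of the EGR proteins, NAB2 was called higher and NAB1 was not called. NAB2, itself a known EGR target that feeds back on EGR activity, had 31.9 CPM in NPC and 10.9 CPM in hESC, a ratio of 2.92 (2.5 to 3.44). NAB1 had 64.7 CPM in NPC and 35 CPM in hESC, a ratio of 1.85 (1.69 to 2.03). EGR4, the remaining family member, had 2 reads in each library. Of 8 EGR cofactors and related zinc finger genes 7 were measured, with NAB2 higher, 0 lower and a median log2 ratio of 0.73 (3 higher and 0 lower with the library total).

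FOS, the partner of JUN in the classical AP-1 dimer, had the next largest ratio among the measured members. It had 548 reads (20.1 CPM) in NPC and 78 reads (4.49 CPM) in hESC, a ratio of 4.46 (3.54 to 5.77). The ratio of EGR1 exceeded that of FOS by 1.8 times (1.33 to 2.43), beyond counting error. FOSB, a second activity-responsive gene whose splice form accumulates in stimulated neurons, had 25 reads (0.919 CPM) in NPC and 15 reads (0.863 CPM) in hESC. Its ratio of 1.05 had an interval of 0.54 to 2.17, so neither a difference nor its absence could be read at this depth.

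FOSL1, which encodes FRA1, a FOS protein without a classical activation domain, ran against FOS. It had 47 reads (1.73 CPM) in NPC and 197 reads (11.3 CPM) in hESC and was 6.51-fold lower (4.75 to 9.22). FOSL2, which encodes the related FRA2, had 118 reads (4.34 CPM) in NPC and 106 reads (6.1 CPM) in hESC, 1.41-fold lower (1.07 to 1.84) and not called. The quotient of the FOS and FOSL1 ratios was 29.3 (19.5 to 44.7), and that of the FOSL2 and FOSL1 ratios 4.65 (3.03 to 7.21). With a filter at 20 CPM FOSL1 was no longer measured.

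**Figure D2:**
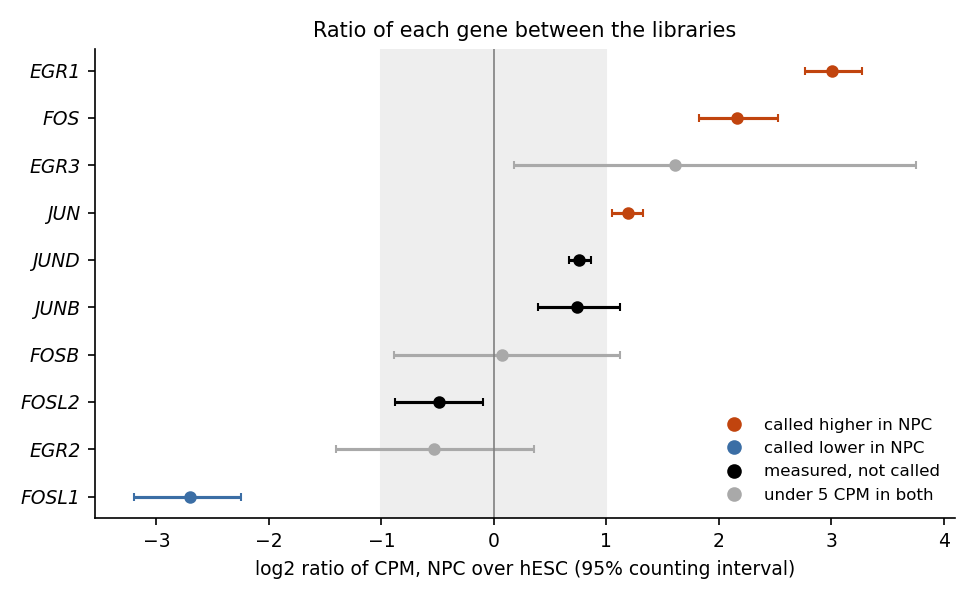
Log2 ratio of CPM, NPC over hESC, for each of the 10 genes, ordered by ratio, with exact 95% counting intervals. The grey band spans 2-fold either way. EGR1 at 3.01, FOS at 2.16 and JUN at 1.19 have intervals beyond the band on the right, FOSL1 at -2.70 lies beyond it on the left, and the grey points were under 5 CPM in both libraries.

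The make-up of the FOS family differed between the libraries more than its sum did. Summed over its 4 genes the family had 27.1 CPM in NPC and 22.8 CPM in hESC, a ratio of 1.19 (1.05 to 1.35). FOS held 74.3% of these reads in NPC (70.9 to 77.4) and 19.7% in hESC (15.9 to 24). FOSL1 held 6.37% in NPC (4.72 to 8.38) and 49.7% in hESC (44.7 to 54.8). Per transcript length FOS had 82.9% of the summed level in NPC and 20.8% in hESC, and FOSL1 had 9.19% in NPC and 67.9% in hESC. FOSL2 had 16% of the reads in NPC and 26.8% in hESC, and FOSB had 3.39% in NPC and 3.79% in hESC. The leading FOS family gene was thus FOS in NPC and FOSL1 in hESC, on reads and per length alike.

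**Figure D3:**
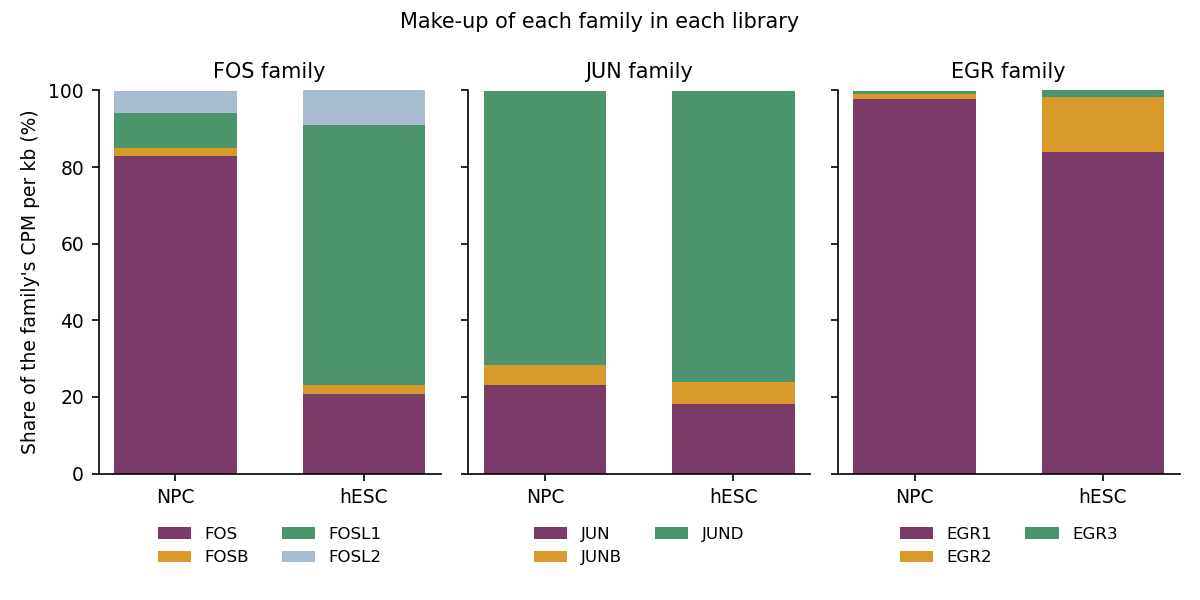
Share of the summed CPM per kb of each family that each member holds, with the NPC bar left of the hESC bar in each panel. FOS makes up 82.9% of its family in NPC and FOSL1 67.9% in hESC, JUND leads the JUN family at 71.7% in NPC and 76.1% in hESC, and EGR1 leads the EGR family at 97.7% in NPC and 83.9% in hESC.

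JUN was called higher, and its relatives JUNB and JUND were not called. JUN, the strongest activator of the family and a target of the JNK kinases, had 1956 reads (71.9 CPM) in NPC and 549 reads (31.6 CPM) in hESC. Its ratio of 2.28 (2.07 to 2.51) was called by a small margin, since the near bound was barely past 2-fold. JUND, which is expressed in most cells without a stimulus, had 3209 reads (118 CPM) in NPC and 1210 reads (69.6 CPM) in hESC, a ratio of 1.69 (1.59 to 1.81). JUNB, an immediate early gene that can restrain JUN, had 231 reads (8.49 CPM) in NPC and 88 reads (5.06 CPM) in hESC, a ratio of 1.67 (1.31 to 2.17).

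The JUN ratio exceeded that of JUND by 1.34 times (1.2 to 1.51) and that of JUNB by 1.36 times (1.03 to 1.78). JUNB and JUND could not be told apart, with a quotient of 0.99 (0.764 to 1.29). The family summed to 198 CPM in NPC and 106 CPM in hESC, a ratio of 1.87 (1.77 to 1.97). JUND led it in both libraries. JUN held 36.2% of its reads in NPC (35 to 37.5) and 29.7% in hESC (27.6 to 31.9), intervals that do not overlap. Per length the shares were JUND at 71.7% of the per-length level in NPC and 76.1% in hESC, JUN at 23% in NPC and 18.2% in hESC, and JUNB at 5.28% in NPC and 5.67% in hESC.

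JUN and JUNB have no intron in GENCODE 29, and neither has the longest transcript of JUND. Among 365 measured genes with 1 exon in every transcript 15.9% were called higher and 24.7% lower, and their median was -0.38 on the log2 scale. Among all 12838 measured genes with an annotated length 19.2% were higher and 19.9% lower, with a median of -0.09. JUNB overlaps exons of HOOK2 on the opposite strand. HOOK2 had 30.1 CPM in NPC and 39.9 CPM in hESC, more than JUNB itself in each library, and the strand setting of the counts is not given, so reads of this overlap cannot be told apart.

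Per transcript length the order of the 10 genes differed between the libraries. In NPC it ran from JUND at 63.3 CPM per kb to EGR1 at 21.1 (20.1 to 22) and JUN at 20.3 (19.4 to 21.2), whose intervals overlap. FOS at 9.34, JUNB at 4.67 and FOSL1 at 1.04 CPM per kb followed. FOSL2 at 0.647 (0.535 to 0.774) overlapped FOSL1 (0.761 to 1.38), and EGR2, FOSB and EGR3, at 0.178 to 0.31 CPM per kb, could not be ordered. In hESC JUND at 37.4 CPM per kb was followed by JUN at 8.92 (8.19 to 9.7) and FOSL1 at 6.79 (5.88 to 7.81), which did not overlap. JUNB at 2.78, EGR1 at 2.6 and FOS at 2.08 CPM per kb had overlapping intervals there. By the longest transcript EGR1 thus lay above FOS and JUNB in NPC and could not be ordered against them in hESC. With the union of all exons as length, FOS fell to 1.39 CPM per kb in hESC, and EGR1 stayed at 2.6. By the longest transcript FOSL1 lay below FOS and JUNB in NPC and above both in hESC.

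The FOS to JUN balance can be read on the same scale. The 4 FOS genes summed to 11.3 CPM per kb in NPC and 10 in hESC, and the 3 JUN genes to 88.3 in NPC and 49.1 in hESC. JUN family message therefore exceeded FOS family message per length in each library. FOS itself stood at 9.34 CPM per kb in NPC and 2.08 in hESC, below JUN at 20.3 in NPC and 8.92 in hESC.

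**Figure D4:**
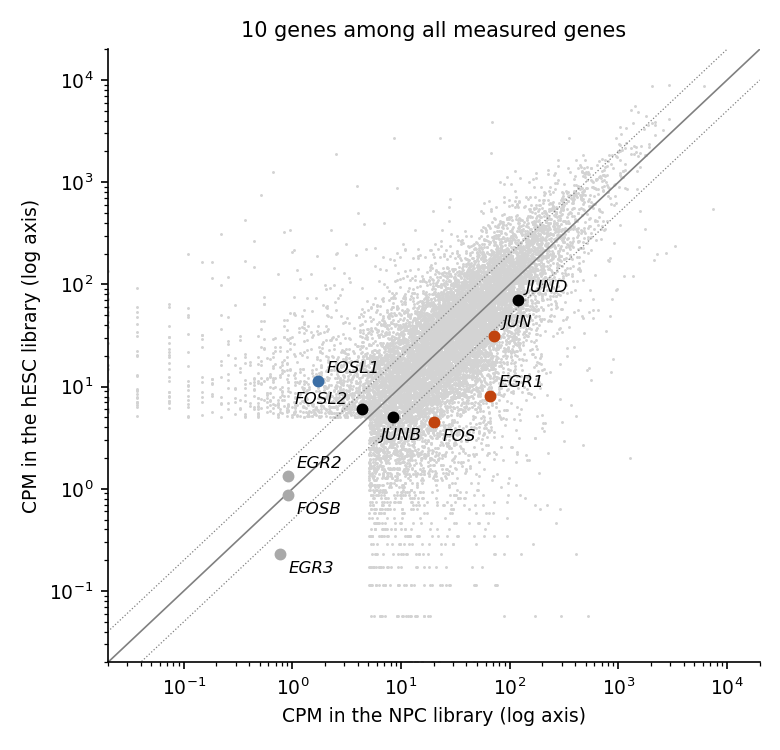
CPM in the NPC library against CPM in the hESC library on log axes, with the 13535 measured genes in light grey and the 10 genes named (orange called higher, blue called lower, black not called, dark grey under 5 CPM). The solid line is equality and the dotted lines are 2-fold either way, and genes without a read in a library lie on the edge of the plot. EGR1, FOS and JUN lie below the dotted line on the NPC side and FOSL1 above it on the hESC side.

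The genes closest to the 3 higher members in log2 CPM over the 2 libraries were of mixed kinds. For EGR1 they were CDK19 (64.3 CPM in NPC, 8.17 CPM in hESC), GSTA4 and MTURN, at distances of 0.0391 to 0.0909. For FOS they were LOC202181, TPPP and ANGPT1 (0.0466 to 0.0771), and for JUN they were BEX4, ZKSCAN8 and REEP3 (0.00578 to 0.022). With 2 libraries such a distance compares only a level and a ratio.

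Other immediate early genes were called in both directions. Of 45 such genes 34 were measured, 6 were higher and 11 lower in NPC, and their median log2 ratio was -0.72. The library total gave 9 higher and 10 lower. Among all measured genes 19.6% were higher and 19.8% lower, and the same shares stand behind the lists that follow. Some genes named from these lists passed the 5 CPM filter in 1 library only. BTG2, IER5L, DUSP1, MAPK10, MAPK11, DUSP8, SPRED3, ANXA1 and PMP22 passed it through NPC only, so a lower call was not possible. MYC, BDNF, JDP2, MYOCD, MAPK13, DUSP5, HMOX1, MMP9, FLT1, PDGFB and CHAC1 passed it through hESC only, so a higher call was not possible. BTG2, an antiproliferative gene, had 53.9 CPM in NPC and 4.95 CPM in hESC, a ratio of 10.8 (8.77 to 13.7). IER5L was 8.77-fold higher (5.99 to 13.8). MYC, the growth factor-induced proliferation gene, had 40 reads (1.47 CPM) in NPC and 2208 reads (127 CPM) in hESC and was 85.3-fold lower (63.2 to 121). CTGF, a gene of the YAP and SRF response, was 7.72-fold lower (6.96 to 8.61).

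Of the single genes of that list chosen for a closer look, ATF3 and IER2 were called lower, and DUSP1, NR4A1 and ARC were not called. ATF3, a stress-induced AP-1 partner, had 9.48 CPM in NPC and 39.5 CPM in hESC and was 4.16-fold lower (3.61 to 4.83). IER2 was 3.23-fold lower (2.93 to 3.57), with 21.8 CPM in NPC and 70.4 CPM in hESC. DUSP1, the phosphatase that shuts off MAP kinases, had 8.09 CPM in NPC and 3.39 CPM in hESC, a ratio of 2.37 (1.78 to 3.23). The nuclear receptor gene NR4A1 had 5.62 CPM in NPC and 11.2 CPM in hESC and was not called. Among the genes that mark synaptic activity, ARC had 6.47 CPM in NPC and 13.3 CPM in hESC, 2.05-fold lower (1.68 to 2.51) and not called, and NPAS4 had 13 reads in NPC and 10 in hESC. NPAS4 was under 5 CPM in both libraries and could not be called either way. EGR1 and FOS, named above as markers of such activity, were called higher. HOMER1 and BDNF, listed with ARC and NPAS4 as immediate early genes, were called lower. HOMER1 was 6.04-fold lower (5.52 to 6.62) and BDNF 3.85-fold lower (2.83 to 5.36). The part of synaptic activity in these levels was not tested.

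**Figure D5:**
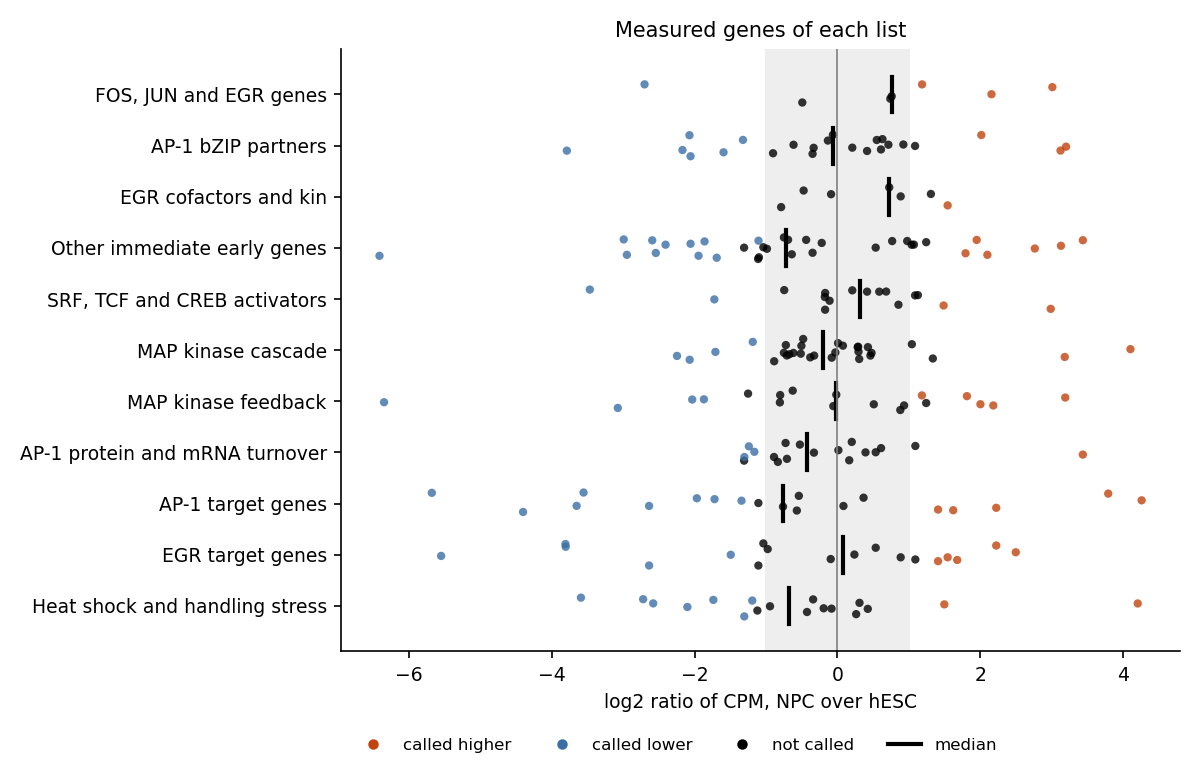
Log2 ratio of CPM, NPC over hESC, for the measured genes of each list, 1 point a gene with vertical jitter, called genes in colour and a black bar at the list's median. The 7 measured FOS, JUN and EGR genes have a median of 0.76, and the other immediate early genes one of -0.72, and the grey band spans 2-fold either way (the median of all measured genes, -0.09, is not drawn).

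The genes listed as AP-1 bZIP partners, which include more distant bZIP relatives, were called in both directions. Of 30 such genes 23 were measured, 3 were higher and 6 lower, a balance that turned to 5 higher and 4 lower with the library total. Their median log2 ratio was -0.06, near 0, and it was above 0 with the library total (0.57), with ribosomal protein genes removed (0.06), with the length trend removed (0.11) and with a 20 CPM filter (0.42). MAF, a bZIP factor of lens and other tissues, was 9.21-fold higher (7.46 to 11.6) at 46.9 CPM in NPC against 5.06 CPM in hESC. CREB5 was 8.73-fold higher (7.27 to 10.6). NFE2L3 was 13.8-fold lower (12.2 to 15.8), and JDP2, a repressor that pairs with JUN, was 4.5-fold lower (3.66 to 5.6).

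Most genes upstream of the 10 members were not called. In the list of SRF, its cofactors and CREB with its coactivators, all 16 genes were measured, 2 were called higher and 2 lower, against 5 higher and 1 lower with the library total. The list's median log2 ratio was 0.31. SRF, the factor that binds the CArG box, had 35.9 CPM in NPC and 119 CPM in hESC and was 3.3-fold lower (3.06 to 3.57). MYOCD, a muscle cofactor of SRF, was 11.1-fold lower (6.38 to 22.3). The CREB coactivator gene CRTC3 had 52.7 CPM in NPC and 6.62 CPM in hESC, 7.94-fold higher (6.59 to 9.72), and CRTC1 was 2.81-fold higher (2.49 to 3.18). SRF protein or activity was not measured, and a part of SRF in the level of EGR1 was not tested.

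All 30 genes of the RAS to MAP kinase cascade were measured, with 2 higher, 4 lower and a list median of -0.20 on the log2 scale. The library total gave 4 higher, 3 lower and a median of 0.15. MAPK10, which encodes the neural kinase JNK3, had 82.7 CPM in NPC and 4.77 CPM in hESC, a ratio of 17.2 (13.9 to 21.8). MAPK11 was 9.09-fold higher (5.85 to 15.7), and neither gene reached 5 CPM in hESC. RPS6KA1, an ERK-activated kinase gene, was 4.2-fold lower (3.76 to 4.71) and MAPK13 4.75-fold lower (3.54 to 6.52).

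The genes of the MAP kinase feedback list were split. Of 21 listed genes 19 were measured, 5 higher and 4 lower. The higher genes were DUSP4, DUSP8, SPRY1, SPRED3 and IL17RD, and the lower ones DUSP5, DUSP6, SPRY4 and ETV4. The list median was -0.02 on the log2 scale, and with the library total 0.34, with 8 higher and 4 lower. The ERK phosphatase genes DUSP4 and DUSP5 ran in opposite directions. DUSP4 had 53.3 CPM in NPC and 5.81 CPM in hESC, a ratio of 9.14 (7.5 to 11.3). DUSP5 had 0.515 CPM in NPC and 43.5 CPM in hESC and was 81.6-fold lower (50.1 to 155). SPRY1 was 4.01-fold higher (3.61 to 4.47) and its relative SPRY4 8.44-fold lower (7.81 to 9.13).

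Known targets of AP-1 and EGR proteins differed in both directions. Of 26 AP-1 targets 25 were found and 19 measured, with 5 higher, 8 lower and a median log2 ratio of -0.76. ANXA1, the gene of annexin A1, was 19.2-fold higher (15.5 to 24.3), and VIM, the intermediate filament gene that is also one of the progenitor markers, was 13.9-fold higher (13.4 to 14.3). HMOX1, the gene of heme oxygenase, was 51.3-fold lower (31.8 to 95.4) and the protease gene MMP9 21.2-fold lower (11.4 to 49.8). Of 20 EGR targets 18 were measured, 5 higher and 5 lower. The list median was 0.07 on the log2 scale, and -0.19 with the length trend removed. The library total gave 7 higher and 4 lower. FN1, the gene of fibronectin, was 4.68-fold higher (4.5 to 4.86) and the myelin gene PMP22 5.65-fold higher (4.08 to 8.22). FLT1, a VEGF receptor gene, was 46.9-fold lower (39.5 to 56.6) and PDGFB 14-fold lower (10.6 to 19.2).

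Most genes that act on the turnover of AP-1 messages and proteins were not called, with 1 higher and 3 lower of 18 measured. The lower calls depended on the scaling, with 2 higher and 0 lower with the library total and 1 higher and 5 lower with the length trend removed. The list median was -0.43 on the log2 scale. BTG2 was the higher gene. CNOT1, a scaffold of the deadenylase complex, was 2.47-fold lower (2.4 to 2.53), and KHSRP, which binds AU-rich elements, was 2.36-fold lower (2.3 to 2.43).

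Heat shock and handling stress genes were called lower more often than higher. Of 18 measured genes 2 were called higher and 7 lower (2 and 5 with the library total), and the list median was -0.68 on the log2 scale. The list summed to 6365 CPM in NPC and 19554 CPM in hESC, of which HSP90AB1 alone had 2021 CPM in NPC and 8674 CPM in hESC. The other 9 measured genes were not called. Among them HSPA1A had 133 CPM in NPC and 107 CPM in hESC, and HSPA1B 141 and 105. DNAJB1 had 45.1 CPM in NPC and 60.6 CPM in hESC, and HSPB1 157 and 167. TXNIP was 18.5-fold higher (15.7 to 22) and DNAJB4 2.82-fold higher (2.41 to 3.34). The chaperonin partner HSPE1 was 6.6-fold lower (6.08 to 7.16), and CHAC1, a stress-induced enzyme of glutathione breakdown, was 12.1-fold lower (7.87 to 20.1). The part of stress during harvest in the levels of the 10 genes was not tested.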

How the data were processed

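The authors deposited raw read counts per gene symbol, 1 file for each library, per the file headers. Libraries were made from 1.3 µg of Trizol-extracted total RNA with a SMARTER mRNA-Seq kit, per the labels' protocols. Per the submitters' processing notes, TopHat, edgeR and build hg19 were used. For the counting tool, its strand setting and its annotation the status is: not given in the sources used here.

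Of 25737 rows, 286 symbols stood on several; the row with most reads was kept. TMM factors came from edgeR 4.0.16 in R 4.3.3. For the point ratio 0.5 was added to each count. Ratio intervals are Clopper-Pearson intervals on the NPC share of a gene's reads, and quotients of ratios have exact conditional intervals. All cover counting error only, since each group holds 1 library. Reads that carry no molecular identifiers can be PCR copies, so the intervals can be too narrow even for that. The code was tested on simulated counts. Levels per length use the longest GENCODE 29 transcript, found for 94.9% of measured genes. Promoters come from RefSeq (GRCh38.p14). Python 3.11.15, scipy 1.17.1 and statsmodels 0.14.6 did the rest.

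Members, lists and alternatives were chosen with earlier results of these data known. Named from each list were up to 2 higher and 2 lower genes with the farthest near bound, a preset set (ATF3, EGR4, NR4A1, IER2, DUSP1, SRF, NAB1, NAB2, NPAS4 and ARC) and the 3 genes nearest to EGR1, FOS and JUN. HOOK2, marker genes, HOMER1 and BDNF were named outside this rule, after their values were seen. So were HSP90AB1, HSPA1A, HSPA1B, DNAJB1, HSPB1 and the remaining called genes of the MAP kinase feedback list. Alternatives were other scalings (library total, DESeq2 1.42.0 size factors, upper quartile), filters, bounds and lengths. No comparison of protein sequences was made.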

Additional observations from a re-analysis of the deposited data

How the results depend on the processing

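The sign of the point ratio was the same for each of the 10 genes under the 7 alternatives tried on the ratio. These were 3 scalings, removal of 87 ribosomal protein genes, summing repeated rows, a lowess correction for transcript length (fraction 0.5) and log2 of CPM + 1. FOSB and EGR2 had intervals that spanned no change wherever one was computed, so their sign gives no direction. With the library total the interval of FOSL2 also spanned no change, at -0.53 to 0.26 on the log2 scale. JUND was called higher with the library total (log2 ratio 1.12) and with the length trend removed (1.13), against 0.76. EGR1 reached 3.37 and JUN 1.54 with the library total, and FOSL1 -2.18 with log2 of CPM + 1. With a 4-fold bound 1 member was higher, against 3, and the numbers over all genes were 1236 higher and 983 lower, against 2649 and 2683. With a filter at 20 CPM 0 members were lower, since FOSL1 was not measured, and 1684 genes were higher. The medians of the bZIP, MAP kinase cascade and MAP kinase feedback lists changed sign with the library total, to 0.57, 0.15 and 0.34. The median of the feedback list also changed sign with upper-quartile factors, to 0.01.

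No paired analysis was possible because each group holds 1 library, which also leaves no library to leave out. Depth limits FOSB, EGR2 and EGR3 most, with 4 to 25 reads in a library. Batch and group cannot be told apart.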
